A study of Mus musculus with 4 samples.

Results

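The clustered histone genes encode the linker histone H1 and the core histones H2A, H2B, H3 and H4 from dense arrays of small genes. Members were chosen by symbol, as every gene of the table whose name begins with Hist1h, Hist2h, Hist3h or Hist4h, without the pseudogenes whose names end in -ps. The pattern matched 70 loci, of which 1 was left out as a -ps pseudogene, so that 69 of the 55820 loci in the table were described. They comprised 6 H1, 20 H2A, 18 H2B, 12 H3 and 13 H4 genes. On GRCm38 (mm10), 56 lie on chromosome 13, 10 on chromosome 3, 2 on chromosome 11 and 1 on chromosome 6. The annotation calls 67 of them protein coding and 2, Hist1h2aj and Hist1h2al, pseudogenes.

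RNA sequencing was performed on whole testes of C57BL/6J mice at postnatal day 10 (P10), with 2 libraries from control mice and 2 from Mps1sKO mice. In Mps1sKO mice, a floxed allele of Mps1, the spindle checkpoint kinase gene listed as Ttk, was deleted by a Stra8-driven Cre recombinase. Cre is made only in germ cells from early spermatogonia onward, so the somatic cells of these testes keep the gene, and which alleles the control mice carried was not given in the sources used here. The sources did not say whether each library came from a separate mouse, so p-values measure the spread between these libraries, which may be technical. The counts of each library summed to between 23311689 and 28607746. For Ttk, the controls gave 750 and 940 counts and the Mps1sKO libraries 302 and 326, a log2 fold change of -1.26 (SE 0.129, edgeR adjusted p = 0.0461). It therefore followed the labels, although its adjusted p was 0.0573 with at least 10 counts required in every library and 0.0745 with limma-voom.

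Most clustered histone genes are replication-dependent. Their mRNAs accumulate when DNA is copied and supply the histones that package the new strands. Instead of a poly(A) tail, these mRNAs end a few bases past a short stem-loop, which the stem-loop binding protein SLBP holds during cleavage, export and translation. Several histone genes outside the clusters, such as H3f3b and H2afz, are expressed throughout the cell cycle and give polyadenylated mRNAs. In the testis, germ cells also use their own variants from the clusters, among them the linker histone H1t (Hist1h1t), TH2B (Hist1h2ba) and TH2A (Hist1h2aa). The libraries were described as mRNA libraries from total RNA, and whether poly(A) tails were selected was not given in the sources used here.

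The stem-loops of 8 genes are shown because they mark the point where the replication-dependent mRNA ends, and because annotated sequence beyond them separates the genes described below. Each line gives the 16-base stem-loop in capitals with 5 bases on either side, 5′ to 3′ on the strand of the gene, from the GENCODE M21 transcripts.
Hist1h1c: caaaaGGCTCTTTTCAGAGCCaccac
Hist3h2a: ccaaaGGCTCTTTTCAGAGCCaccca
Hist1h2bj: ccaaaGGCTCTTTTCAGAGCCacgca
Hist1h3a: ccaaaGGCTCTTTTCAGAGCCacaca
Hist1h3c: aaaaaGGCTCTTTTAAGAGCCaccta
Hist1h1t: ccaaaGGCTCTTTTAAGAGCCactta
Hist1h4i: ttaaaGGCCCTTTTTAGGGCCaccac
Hist2h4: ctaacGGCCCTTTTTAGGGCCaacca

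A stem-loop of this form followed the stop codon in 45 of the 69 members, at 21 to 58 bases past it, and 25 of these had the form seen in Hist1h1c. Outside the members, 18 of 21834 protein coding genes (0.082%) held the form anywhere in a transcript. Of the 24 members without a match, 15 have gene models that stop at most 2 bases past the stop codon, so their 3′ ends are not annotated, and 2 are pseudogenes without an annotated stop codon. For each gene the longest annotated transcript with a stop codon was taken. In Hist1h1c, Hist1h4i, Hist3h2a and Hist2h4 this transcript runs on for 840, 330, 1643 and 1257 bases past the stem-loop. In Hist1h2bj, Hist1h3a and Hist1h3c it ends 23, 37 and 74 bases past it. No match was found in Hist2h2be, whose model has 2192 bases after the stop codon, or in Hist1h2bc, which is spliced to a second exon just after the stop codon and has 742 bases there.

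Clustered histone genes took a very small share of the reads in every library. Together they took 1727 and 1763 counts of the controls and 1411 and 1861 of the Mps1sKO libraries, which is 0.00605% to 0.00687% of the library totals. Of the histone genes outside the clusters, H3f3b, which encodes the replacement histone H3.3, alone had 27130 to 32079 counts per library, whereas others, such as H2bfm with 23 to 79 counts, were low. H3f3b stood at 358 to 401 FPKM (fragments per kilobase of gene, scaled to library size), whereas the highest clustered gene, Hist1h1c, averaged 8.40 FPKM over the 4 libraries. Only 14 members reached a mean of 1 FPKM, and 55 did not. The median member had 17 counts over the 4 libraries, 15 members had at most 3 counts in every library, and 8 of these had none in any. A count of 0 allows up to 3 counts in a library, or 0.105 to 0.129 CPM (the count scaled to library size). Limits of this kind take in counting error alone.

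The counts were concentrated in 4 genes, Hist2h2be, Hist1h1c, Hist1h2bc and Hist3h2a, which held 68.7% of all member counts. The linker histone gene Hist1h1c (chr13:23738808-23740367) was the highest per length, at 8.28 ± 0.435 FPKM in control and 8.52 ± 1.42 in Mps1sKO testes (SD, n = 2 each). The H2B genes Hist1h2bc (chr13:23684199-23692908) and Hist2h2be (chr3:96221119-96223738) followed at 6.62 ± 0.550 and 5.39 ± 0.291 FPKM in control testes. The H2A gene Hist3h2a (chr11:58954685-58956830) stood at 2.77 ± 0.622 FPKM. All 4 have at least 742 annotated bases after the stop codon, as plotted for level against annotated 3′ end. Hist1h2bj (chr13:22043214-22043676) was the highest gene with a short 3′ end, at 5.29 ± 1.17 FPKM in control testes.

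**Figure D1:**
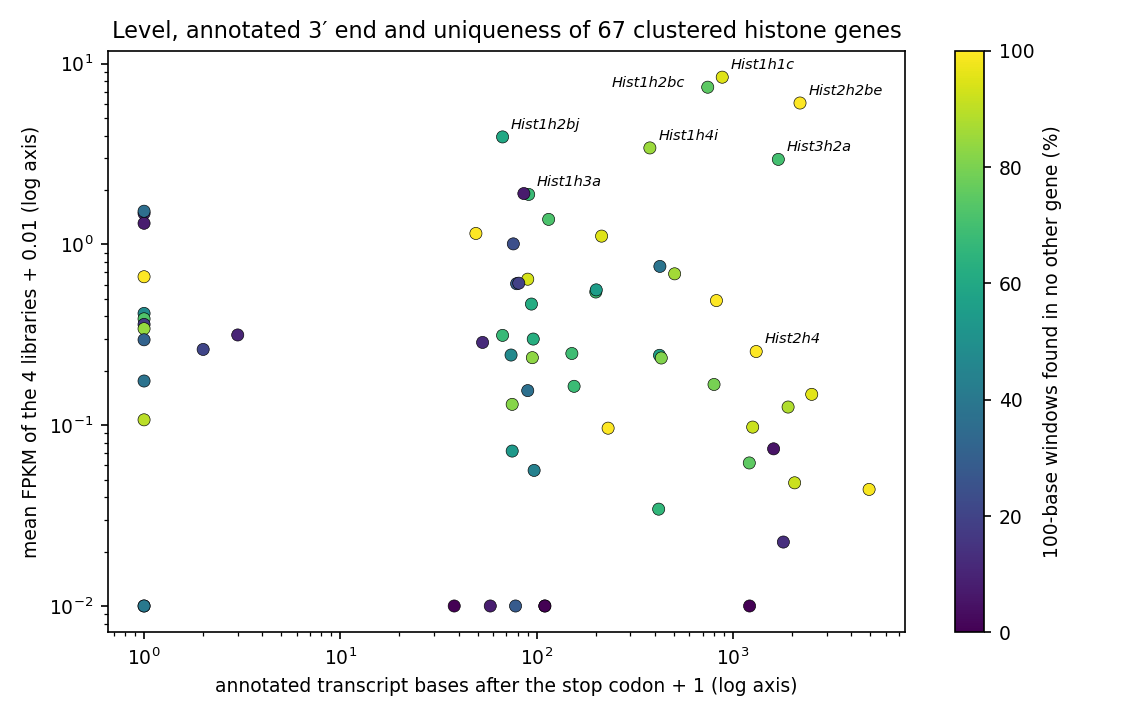
Mean FPKM of the 4 libraries (plus 0.01, log axis) against the annotated transcript bases after the stop codon (plus 1, log axis) for the 67 members with an annotated stop codon, 1 point per gene, coloured by the percentage of its 100-base windows found in no other gene. Hist1h1c, Hist1h2bc, Hist2h2be and Hist3h2a sit at the upper right, and the points at the bottom edge are the 8 members with no count, all of which have fewer than 50% unique windows.

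Many genes of a family are near-copies of each other, and some share sequence with overlapping annotated genes outside the members. Both limit how reads can be assigned. In the reference transcripts, 29 of the 69 members had fewer than 50% of their 100-base windows free of an exact copy in another gene. Copies were searched on both strands, and overlapping genes were included. The 5 members without any unique window, Hist2h2aa1, Hist2h2aa2, Hist2h2bb, Hist2h3b and Hist2h3c1, had 0 counts in every library, and the other 3 members without a count had at most 40.3% unique windows. In each of the 5, and in Hist2h2ab, an overlapping annotated gene outside the members shared at least as many windows as any other gene. How reads with several matches, or reads over overlapping genes, were counted was not given in the sources used here. A count of 0 in these genes therefore does not measure their expression. Exons of all 20 H2A members, and of 26 members in all, overlap those of another annotated gene, mostly on the opposite strand, and whether counting used strand was likewise not given. Hist2h2be, Hist2h4, Hist1h4d, Hist1h1a, Hist1h1b and Hist1h1t had 100% unique windows, and Hist1h1c had 94.9%. Hist1h2bc had 74.65%, and its other windows recur in a total of 14 genes. Hist3h2a had 70.2%. It shared the most windows with Trim17, whose exons overlap it on the same strand, so its reads may belong in part to Trim17.

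Between genotypes, 24 members passed the filter on low counts and were tested, and none passed an adjusted p below 0.05 in edgeR's quasi-likelihood test over 20561 loci (lowest adjusted p = 0.494). At this threshold 6 loci were lower in Mps1sKO testes (0.0292%), Ttk among them, and 0 were higher. At an unadjusted p below 0.05, the H2B gene Hist1h2bj and the H3 gene Hist1h3a were lower, 2 of 24 members (8.33%) beside 5.37% of all loci tested. The H4 gene Hist2h4 was higher, 1 of 24 (4.17%) beside 3.92%. The cut-offs of the study, more than 1.5-fold with p under 0.01 before adjustment, took Hist1h2bj among the lower members, beside 0.681% of all loci, and no higher member, beside 0.146%. DESeq2 called 0 members at an adjusted p below 0.05, where 0.0851% of its 35262 loci were lower and 0.0199% higher. At an unadjusted p below 0.05 it called 1 of 61 members, Hist1h2bj, lower, beside 1.69% of its loci. These shares lie near the background, or rest on 1 or 2 genes. The tested members held 92.5% of all member counts, and the 45 others had at most 13 counts in any library and 504 in all.

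Across the 24 tested members, 17 log2 fold changes were below 0 (70.8%, against 49.9% of all loci tested), and the median was -0.23, against 0.00027 over all loci. In CPM scaled with TMM, both Mps1sKO libraries lay below both control libraries in 7 members (29.2%, against 21.1% of all loci) and above them in 3 (12.5%, against 20.3%). The members that separated downward were Hist1h1a, Hist1h2be, Hist1h2bj, Hist1h2bm, Hist1h3a, Hist1h4d and Hist2h3c2, and those that separated upward were Hist1h2bc, Hist2h2be and Hist2h4. In the deposited FPKM, 6 separated downward, since the libraries of Hist1h2be overlapped there, and the same 3 upward. Most members have few reads: 17 of the 24 had fewer than 100 counts over the 4 libraries, with a median SE of 0.46 on the log2 scale, against 0.20 for the 7 with more. An exact two-sided permutation test of 2 against 2 libraries cannot give a p below 0.333, so none is given for single genes or sums.

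**Figure D2:**
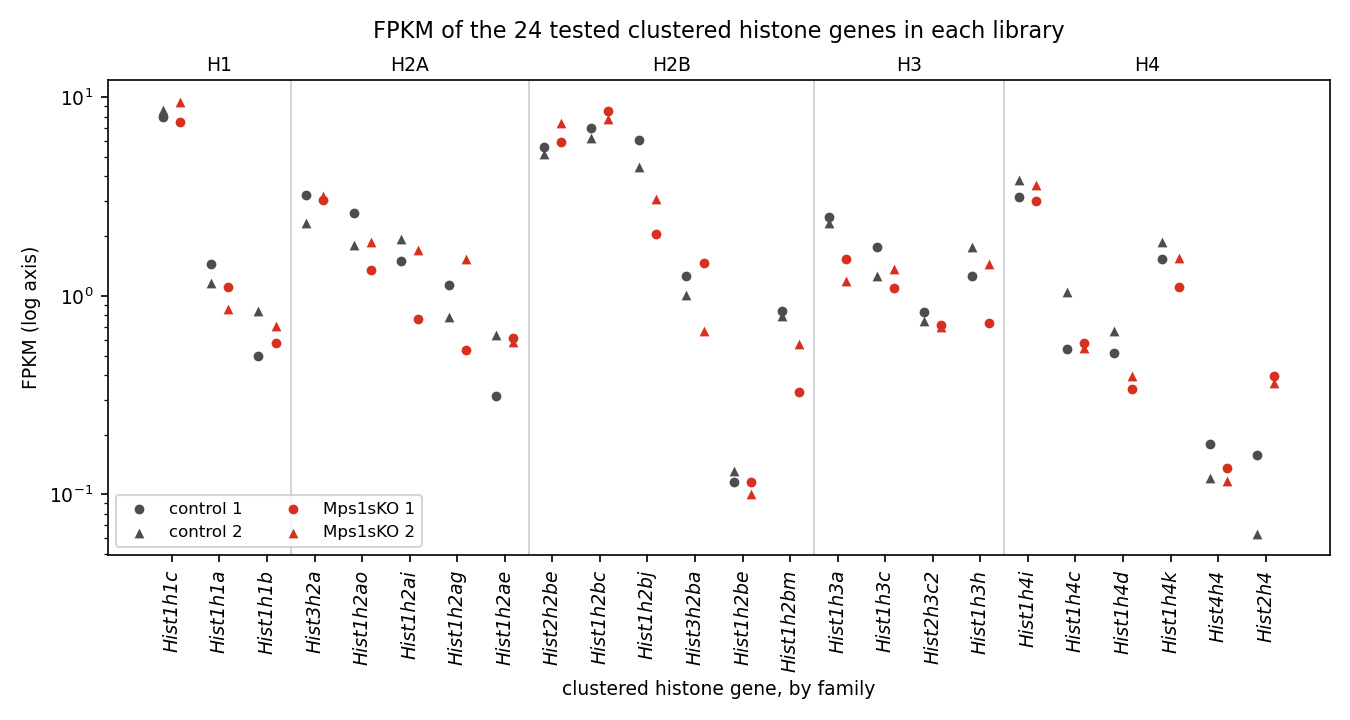
FPKM (log axis) of the 24 tested members in each library, grouped by family and ordered within a family by total counts; grey marks control and red Mps1sKO, circles replicate 1 and triangles replicate 2. The libraries of each genotype separate for Hist1h2bj and Hist1h3a (lower in Mps1sKO) and for Hist2h4 (higher), and overlap for Hist1h1c, Hist3h2a and Hist1h4i.

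Among the H1 genes, which encode the linker histones that bind DNA between nucleosomes, Hist1h1c gave 338 and 389 counts in control libraries against 273 and 399 in Mps1sKO. The genotypes overlapped, with a log2 fold change of 0.036 (SE 0.155). Hist1h1a gave 29 and 25 against 19 and 17 counts, lower in both Mps1sKO libraries after scaling (log2 fold change -0.42, SE 0.343, edgeR adjusted p = 0.718). Hist1h1b (10 and 18 against 10 and 14) overlapped. The 3 tested H1 genes had a median log2 fold change of -0.06.

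Of the H2A genes, 5 were tested, and none of them separated the genotypes. H2A and H2B pair into the dimers that flank the H3-H4 tetramer of the nucleosome. Hist3h2a gave 187 and 145 counts in control libraries against 152 and 184 in Mps1sKO (log2 fold change 0.17, SE 0.198). Hist1h2ao had 34 and 25 against 15 and 24 counts, and Hist1h2ai 16 and 22 against 7 and 18, so that their libraries overlapped. Only 7.35% and 11.6% of the windows of these last 2 genes are unique, so their reads may belong in part to other H2A copies. The median of the 5 genes was 0.14.

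The H2B genes held both the lowest log2 fold change of all tested members and 2 of the 3 genes that separated upward. Hist1h2bj gave 77 and 60 counts in control libraries against 22 and 38 in Mps1sKO. Its level in Mps1sKO testes was 47.9% of control, a log2 fold change of -1.04 (95% CI -1.74 to -0.35, edgeR adjusted p = 0.494). Every Mps1sKO value lay below every control value. Without a filter on low counts its adjusted p was 0.0320, and 0.712% of 35262 loci were called lower there. It left the study's cut-offs with DESeq2, limma-voom and the replicate block (adjusted p = 0.612, 0.496 and 0.915), and when control replicate 1 (log2 fold change -0.80) or Mps1sKO replicate 1 (-0.80) was left out. Of its windows, 59.9% are unique, and the others recur in a total of 12 genes. Hist1h2bm, with 12 and 12 against 4 and 8 counts, was also lower in both Mps1sKO libraries (log2 fold change -0.84, SE 0.519, edgeR adjusted p = 0.633). By contrast, Hist2h2be gave 398 and 394 against 365 and 522 counts, which after scaling was 14.8 and 13.7 against 15.8 and 19.5 CPM (log2 fold change 0.31, SE 0.146, edgeR adjusted p = 0.563). Hist1h2bc gave 220 and 209 against 231 and 241 counts, or 8.17 and 7.25 against 9.97 and 8.99 CPM (log2 fold change 0.30, SE 0.156, edgeR adjusted p = 0.594). These last 2 genes were higher in both Mps1sKO libraries, but their differences did not pass the test, and the log2 fold change of Hist2h2be was 0.15 without Mps1sKO replicate 2. Among the 6 tested H2B genes, 4 were below 0, and the median was -0.16.

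The 4 tested H3 genes all had negative log2 fold changes, with a median of -0.37. Hist1h3a (chr13:23761853-23762386) gave 36 and 36 counts in control libraries against 19 and 17 in Mps1sKO, 56.3% of control (log2 fold change -0.83, 95% CI -1.57 to -0.10, edgeR adjusted p = 0.515). Its groups did not overlap, but of the 4 fits that leave out a library only the fit without Mps1sKO replicate 1 kept an unadjusted p below 0.05 (log2 fold change -1.02). Hist1h3c had 30 and 23 against 16 and 23 counts (log2 fold change -0.29, SE 0.350) and Hist1h3h 14 and 21 against 7 and 16 (log2 fold change -0.45, SE 0.467), and both overlapped. Of the windows of Hist1h3h, 8.01% are unique. Hist2h3c2, with 23 and 22 against 17 and 19 counts, separated by a small step (log2 fold change -0.16, SE 0.336).

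Of the 6 tested H4 genes, 5 were below 0 and 1 above. Hist2h4 (chr3:96261682-96263311) gave 7 and 3 counts in control libraries against 15 and 16 in Mps1sKO, a log2 fold change of 1.76 (95% CI 0.50 to 3.03, edgeR adjusted p = 0.494). It no longer had an unadjusted p below 0.05 with DESeq2 (log2 fold change 1.79), without control replicate 2 (1.24) or without Mps1sKO replicate 1 (1.71), and it was 2.52 without control replicate 1. Its change was the highest among the tested members, in a gene at 0.111 ± 0.0669 FPKM in control and 0.380 ± 0.0210 in Mps1sKO testes. Hist1h4d had 16 and 22 against 9 and 12 counts and was lower in both Mps1sKO libraries (log2 fold change -0.69, SE 0.404, edgeR adjusted p = 0.619). Hist1h4i, the H4 gene with the most counts, had 62 and 81 against 51 and 71 (log2 fold change -0.07, SE 0.231), and its libraries overlapped, as did those of Hist1h4c (12 and 25 against 11 and 12) and Hist1h4k (13 and 17 against 8 and 13). Hist1h4h was not tested: it gave 6 and 13 against 1 and 4 counts, a ratio of 0.294 (exact 95% interval 0.0857 to 0.813, for counting error only, chosen after the values were seen).

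**Figure D3:**
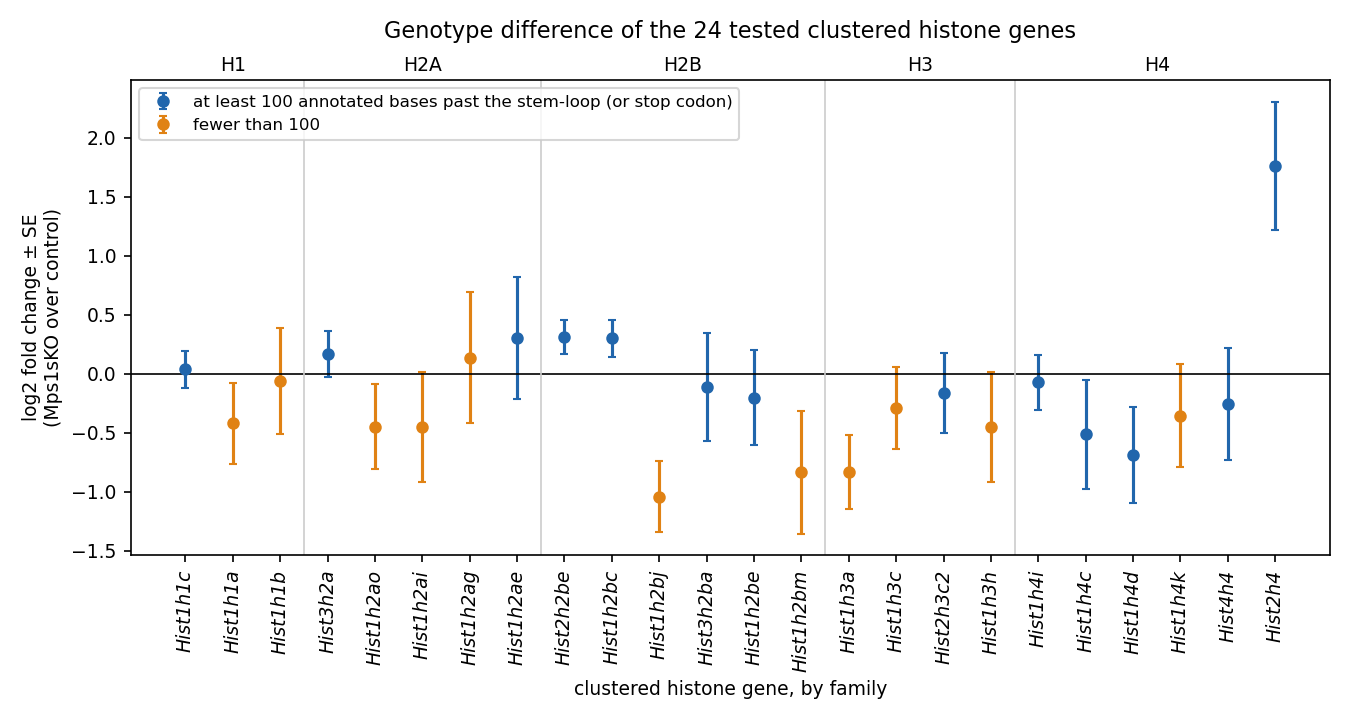
Log2 fold change (Mps1sKO over control) with its SE from edgeR for the 24 tested members by family, in blue for genes with at least 100 annotated bases past the stem-loop (or past the stop codon where no stem-loop was found) and in orange for genes with fewer. Of the 11 orange genes 10 lie below 0, with Hist1h2bj lowest at -1.04, and the 13 blue genes lie on both sides, with Hist2h4 highest at 1.76.

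The germ line variants of the clusters were barely detected in these libraries. The study places the beginning of meiosis at about P10. Hist1h1t, the testis linker histone, gave 1 and 2 counts in control libraries against 4 and 1 in Mps1sKO. Hist1h2aa had 1 count in each of the 4 libraries. Hist1h2ba gave 5 and 9 against 2 and 0 counts, a ratio of 0.159 with an exact 95% interval of 0.0176 to 0.694 that covers counting error only. All 3 failed the filter on low counts, and no test between genotypes was made on them. The models of Hist1h2ba and Hist1h2aa have 0 bases after the stop codon, and exons of Hist1h2aa overlap a gene on the opposite strand. The part of age, library type and counting in these low counts was not tested.

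A division by annotated 3′ end, made after the values were known and therefore given without a test, separated the members further. It set apart 28 members with at least 100 annotated bases past the stem-loop, or past the stop codon where no stem-loop was found, and 39 with fewer. The class rests on the longest annotated transcript with a stop codon, so shorter transcripts of the same gene were not considered. The 39 include 15 whose models stop at most 2 bases past the stop codon, so that their 3′ ends are not known. No member with a stem-loop had between 74 and 108 bases. The 28 held 82.4% of all member counts, and the 39 held 17.4%. The hexamer AATAAA, the usual signal for polyadenylation, was found in the last 50 bases of 12 of the 28, beside 40.6% of the 58725 protein coding transcripts of other genes. It was found in 0 of the 39, but only 22 of these have 50 or more annotated bases after the stop codon, so that the rule behind the class largely fixed this count.

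Of the tested members with a long 3′ end, 7 were below 0 and 6 above, with a median log2 fold change of -0.07. Of those with a short annotated 3′ end, 10 were below 0 and 1 was above, with a median of -0.45. Without the 4 whose models stop at the stop codon (Hist1h1b, Hist1h2ai, Hist1h3h and Hist1h4k), 6 were below 0 and 1 above, with a median of -0.45. The summed level of the 39 short genes was 13.6 and 12.5 CPM in controls against 7.81 and 10.0 CPM in Mps1sKO testes, a log2 ratio of -0.55. That of the 28 long genes was 50.5 and 48.5 against 53.1 and 59.2 CPM, a log2 ratio of 0.18. In both sums the genotypes did not overlap, and they lay in opposite directions. Separation of 2 against 2 libraries is common: 21.1% of all loci tested separated downward and 20.3% upward. Without Hist1h2bj, its gene with the most counts, the short class still summed to 10.7 and 10.4 CPM in controls against 6.86 and 8.62 CPM in Mps1sKO testes. With Hist1h2bj included, the 24 short genes with more than 2 bases after the stop codon summed to 10.6 and 8.53 against 5.39 and 7.02 CPM. Without Hist2h2be the long class summed to 35.7 and 34.8 against 37.3 and 39.7 CPM. The 4 members with the most counts are all in the long class and summed to 42.4 and 39.4 against 44.1 and 50.2 CPM. With all 4 taken out, the rest of the long class overlapped between genotypes, so its higher sum rests on these 4 genes. The classes also differed in the share of unique windows (median 37.9% in the short class and 80.3% in the long class), and the part of this in the difference was not tested.

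Over all 69 members, the summed level did not separate the genotypes. It was 64.1 and 61.1 CPM in control and 60.9 and 69.4 CPM in Mps1sKO libraries, a log2 ratio of 0.06. The 4 genes with the most counts summed to 42.4 and 39.4 against 44.1 and 50.2 CPM, and the other 65 to 21.7 and 21.7 against 16.8 and 19.2 CPM. By family, the sums of H3 (4.42 and 4.06 against 3.67 and 3.47 CPM) were lower in both Mps1sKO libraries, and those of H1, H2A and H4 overlapped. The H2B sum was higher in both Mps1sKO libraries in CPM (29.0 and 26.5 against 29.9 and 32.7) but overlapped without Hist2h2be (14.3 and 12.8 against 14.2 and 13.2 CPM) and in FPKM (23.7 and 21.5 against 21.2 and 21.9). As a background, 21.1% of all loci tested separated downward and 20.3% upward in CPM.

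**Figure D4:**
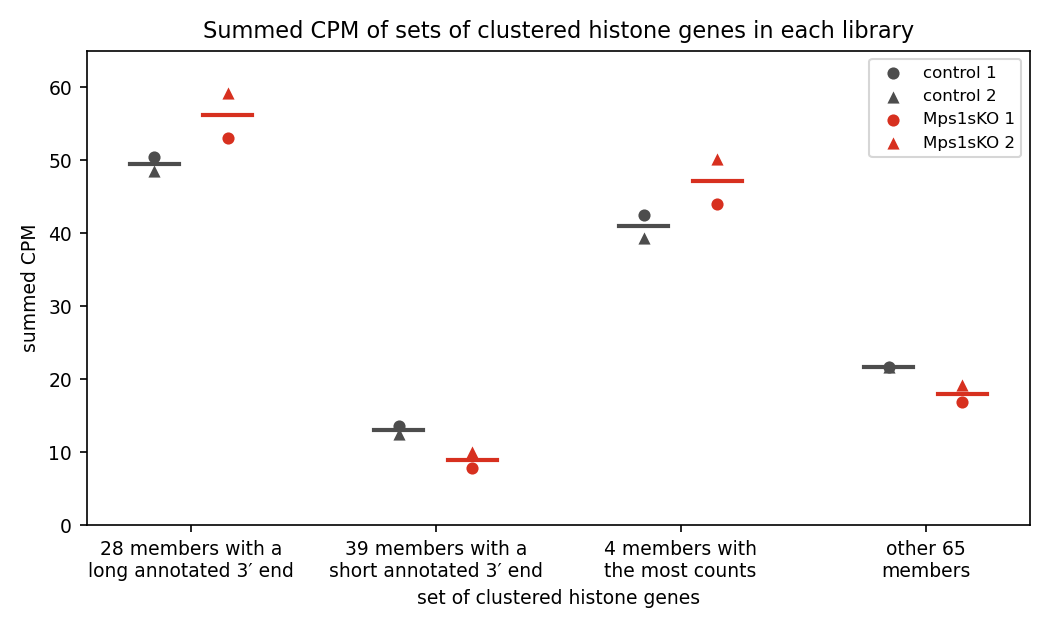
Summed CPM (scaled with TMM, axis from 0) of sets of clustered histone genes in each library; points are libraries and horizontal bars the mean of the 2 libraries of a genotype. The 39 genes with a short annotated 3′ end lie at 12.5 and 13.6 CPM in control and 7.81 and 10.0 CPM in Mps1sKO libraries, and the 28 genes with a long annotated 3′ end lie at 48.5 and 50.5 against 53.1 and 59.2 CPM.

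Promoters of the clusters share short motifs that the choice of members did not use. RefSeq promoters on GRCm38.p6, from 250 bases before to 50 after the annotated start, were at hand for 61 of the 69 members. Each motif was searched on both strands of the 250 bases before the start. The 3 motifs do not overlap one another in the sequences printed. The octamer ATTTGCAT, which binds the transcription factor Oct1 (Pou2f1), was found in 13 of 61 (21.3%) against 1.61% of all 27025 promoters. All 13 were H2A (7 of 17) or H2B (6 of 16) genes. The CCAAT box (CCAAT) was found in 82% of members against 34.5% of all promoters, and the TATA box (TATAAA) in 47.5% against 13%. Of the H4 promoters 3 of 12 held CCAAT, whereas every H1, H2A and H2B promoter did. A match in these letters is a description and not evidence of binding.

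The upstream sequences of 2 H2B genes are printed, 5′ to 3′ on the strand of the gene, because Hist1h2bj had the lowest log2 fold change of the tested members and Hist1h2ba is the germ line variant. Capitals mark ATTTGCAT, TATAAA and CCAAT, or ATTGG where CCAAT is on the other strand. The window of Hist1h2bj (chr13:22043018-22043137, + strand) holds 5 CCAAT boxes, and that of Hist1h2ba (chr13:23934237-23934326, - strand) holds 1 octamer, 2 CCAAT boxes and 1 TATA box.
Hist1h2bj: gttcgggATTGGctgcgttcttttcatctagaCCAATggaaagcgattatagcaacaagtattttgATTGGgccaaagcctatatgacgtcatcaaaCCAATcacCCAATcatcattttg
Hist1h2ba: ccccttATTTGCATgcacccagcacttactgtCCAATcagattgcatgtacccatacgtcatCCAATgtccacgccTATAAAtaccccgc
The annotated starts of Hist1h2ba and Hist1h2aa lie 281 bases apart on opposite strands, and the octamer found in both promoters is the same one, at position 23934313 of chromosome 13. The TATA box of Hist1h2ba stands at -94 from its annotated start, and whether transcription begins at that start was not tested.

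Of the genes that transcribe histone genes and process their mRNA, 19 were tested, with a median log2 fold change of -0.05. At an unadjusted p below 0.05, 0 passed in either direction, beside 5.37% of all loci tested lower and 3.92% higher. Npat, the coactivator of histone gene transcription, had a log2 fold change of -0.15 (SE 0.113), and Slbp, the stem-loop binding protein, had -0.07 (SE 0.120), and in both the libraries of the genotypes overlapped. The smallest p-values of the list belonged to Coil, the scaffold of Cajal bodies (-0.21), Cpsf3, the endonuclease that cuts histone pre-mRNA (-0.17), and Tut7, which adds uridines to histone mRNA (0.14). The 14 tested histone genes outside the clusters had a median log2 fold change of -0.01. Of these, 2 were lower at an unadjusted p below 0.05, beside 5.37% of all loci tested. They were H2bfm, an H2B variant gene (49 and 79 against 23 and 30 counts, log2 fold change -1.11, SE 0.299, edgeR adjusted p = 0.494), and Cenpa, the H3 variant of centromeres (log2 fold change -0.32, SE 0.0975, edgeR adjusted p = 0.494). H3f3b, H2afx and H2afz did not pass, at 0.13, 0.19 and 0.02.

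The 20 tested histone chaperones and deposition factors had a median log2 fold change of -0.05, with 14 below 0 and 6 above. Of these, 3 were lower at an unadjusted p below 0.05 and 0 higher, beside 5.37% and 3.92% of all loci tested. They were Asf1b, which hands H3-H4 dimers to the replication machinery (log2 fold change -0.51, SE 0.125), Nasp, which stores H3-H4 (-0.31, SE 0.121), and Hat1, which acetylates new H4 (-0.24, SE 0.0921). Of 20 S phase genes, 7 were lower and 0 higher at the same threshold, beside the same 5.37% and 3.92%, with a median of -0.16. Cdc6, which loads the replicative helicase, had a log2 fold change of -0.50 (SE 0.144), Cdc45 of that helicase -0.39 (SE 0.116) and the primase subunit Prim1 -0.31 (SE 0.106). At an adjusted p below 0.05, 0 genes of these 4 lists passed in the main edgeR fit. Without a filter on low counts, Asf1b, Cdc6 and H2bfm did (edgeR adjusted p = 0.00881, 0.0272 and 0.0243). There 0.712% of 35262 loci were called lower.

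Markers of the cell types of the testis moved at the same time. Of 11 germ cell markers, 9 were lower at an unadjusted p below 0.05, beside 5.37% of all loci tested. Their median log2 fold change was -0.47. Their summed level was 1351 and 1591 CPM in control and 1209 and 959 CPM in Mps1sKO libraries, and none was at 0. Of 10 Sertoli cell markers 9 were tested, all with positive log2 fold changes (median 0.26), whereas Rhox5 had 1 count in all. At an unadjusted p below 0.05, 3 were higher, beside 3.92% of all loci tested. The list summed to 5669 and 5855 CPM in control and 7244 and 6853 CPM in Mps1sKO libraries. Markers of Leydig, peritubular myoid, macrophage, endothelial and red blood cells had 0 genes past an unadjusted p below 0.05 in either direction. The part of these markers in the differences of histone genes was not tested, and in whole testis fewer cells of a type and less RNA per cell cannot be told apart.

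**Figure D5:**
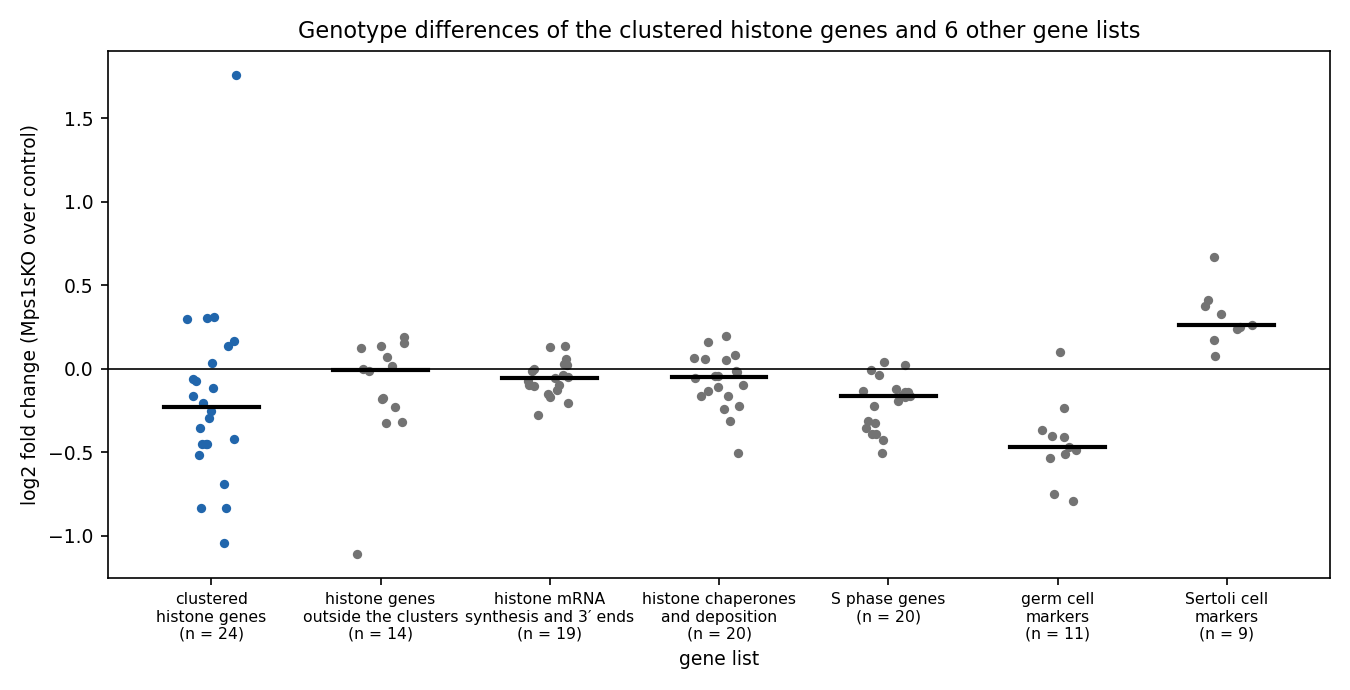
Log2 fold change (Mps1sKO over control, edgeR) of the tested genes of each list, 1 point per gene with a small horizontal scatter, and the median as a black bar. The clustered histone genes (median -0.23) spread more widely than the 19 genes of histone mRNA synthesis and 3′ ends (median -0.05). However, 17 of the 24 clustered genes had fewer than 100 counts over the 4 libraries (median SE 0.46). The part of low counts in this spread was not tested. The 11 germ cell markers have a median of -0.47, and the 9 Sertoli cell markers lie above 0.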

How the data were processed

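RNA sequencing covered 4 libraries of whole testes, grouped by the genotype in the labels. NEBNext Ultra libraries were read as 150 bp pairs on a NovaSeq. The submitters' processing notes name HISAT2 2.0.5, featureCounts, DESeq2 1.16.1 and mm10. The authors deposited 1 table with raw read counts per gene, not normalized, beside FPKM values. The deposited FPKM values equalled counts divided by gene length and a library size within 0.1% at every locus checked, and they are used for levels between genes.

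The test on counts was that of edgeR 4.0.16 under R 4.3.3 (filterByExpr, TMM, quasi-likelihood test on genotype, two-sided, Benjamini-Hochberg over 20561 loci), and CPM values are scaled with TMM. Python 3.11.15 was used for sums, exact intervals and sequences. Coordinates of all 69 members equalled those of GENCODE M21. The wrong gene of a near-identical pair can receive a read, and shared reads may be lost. In simulated data for this comparison (20561 genes, 100 changed per size), edgeR called 78% of changes of log2 1 and 99% of log2 2 (DESeq2 63% and 92%), each with 4 false calls. These shares are for genes at the levels of all loci (median 369 counts per library) and do not apply to the members (median 16.75). The simulation gave every gene the same spread between libraries and changed no gene of the lowest levels. The shares may therefore not hold for genes that vary more.

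The members, gene lists, tests and named genes were chosen with earlier results of these data known. Named genes are Ttk, the germ line variants, the 3 members of each family with the highest FPKM, up to 5 lower and 5 higher separated members with the smallest p, the 3 genes of each histone-related list with the smallest p, and Slbp, Npat, H2afx, H2afz and H3f3b; others were chosen after their values were seen. H2bl1 was not found in the table, and Zcchc6, an older symbol of Tut7, was counted once. Alternatives were DESeq2 1.42.0, its size factors, library size only, other filters on low counts, limma-voom with limma 3.58.1, the replicate number as a block, members with mostly unique windows, family sums, sums without the top gene, the list without germ line variants, and each library left out.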

Additional observations from a re-analysis of the deposited data

How the results depend on the processing

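Members with an adjusted p below 0.05 numbered 0 in every alternative except without a filter on low counts, where 61 members and 35262 loci were tested and 1 member, Hist1h2bj, was called (log2 fold change -1.04, adjusted p = 0.0320), beside 0.712% of loci called lower. There 4 members were lower and 2 higher at an unadjusted p below 0.05 (4.8% and 3.72% of loci), 1 passed the study's cut-offs upward (0.383% of loci), and the median log2 fold change was -0.11. DESeq2 gave 1 lower and 0 higher members at an unadjusted p below 0.05, 0 past the study's cut-offs and a median of -0.094, over 61 members of which 6 had an adjusted p. With at least 10 counts in every library, 15 members were tested, 0 were higher at an unadjusted p below 0.05, and the median was -0.17. limma-voom gave 0 lower and 1 higher member past the study's cut-offs. With only members of mostly unique windows the median was -0.16. Over the libraries left out in turn, members lower at an unadjusted p below 0.05 numbered 1 to 2 (1 without control replicate 1, control replicate 2 or Mps1sKO replicate 2) and members higher 0 to 1 (0 without control replicate 2; without Mps1sKO replicate 1 it was Hist2h2be, not Hist2h4). Those past the study's cut-offs downward numbered 0 to 1 (0 without control replicate 1 or Mps1sKO replicate 1). The median ranged from -0.22 to -0.15, and the log2 ratio of summed CPM from -0.04 to 0.15. There the lone library of an arm is assumed to vary like the other group. The cause of these shifts was not tested, apart from the number of genes tested.

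With the replicate block, 0 members passed the study's cut-offs against 1, Ttk lost its call (adjusted p = 0.224), 2 loci in all had an adjusted p below 0.05 against 6, and the median was -0.22. It changed no other call of a named gene. Same-numbered libraries did not deviate together (r = -0.19 over 20561 loci, 0.08 over the 24 members). With so few libraries, these values cannot exclude a pairing by number. A crossed pairing, added after seeing the data, gave 550 loci at an adjusted p below 0.05, 0 of them members, and 2 members higher at an unadjusted p below 0.05 (9.13% of loci).

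Of 390 values of 36 named genes over the alternatives, 368 kept their direction and their side of the threshold, 3 lost and 4 gained a call, and 15 changed sign, all in genes not called. These were H2afz (-0.0026 with library size only, -0.0059 with limma-voom, -0.0071 with the block) and, over the libraries left out in turn, H2afz (-0.29 to 0.27), Hist1h1b (-0.38 to 0.36), Hist1h1c (-0.14 to 0.19), Hist1h4c (-0.91 to 0.047), Hist1h4i (-0.22 to 0.078), Hist3h2a (-0.049 to 0.42) and Slbp (-0.23 to 0.071). Ttk also lost its call with at least 10 counts in every library and with limma-voom. The 4 calls gained were those of Hist1h2bj, Asf1b, Cdc6 and H2bfm, all without a filter on low counts. The summed CPM has no test, so the other tests, filters and the block give it no value; without Hist2h2be its log2 ratio was -0.03, and the median of the 5 family sums was 0.0023. Low counts limit the precision of most members.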
